A study of Mus musculus with 3 samples.

Results

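The heat shock chaperones and the genes of the unfolded protein response were described as a module of 39 genes, chosen by gene symbol out of 55536 annotated genes. They comprise the HSP70, HSP90 and HSP110 chaperones of the cytosol with their partners and the heat shock factor Hsf1, the chaperones of mitochondria, the folding and quality control machinery of the endoplasmic reticulum (ER), the stress sensors of the ER and the outputs of these sensors. All 39 symbols matched a gene. The symbol Ddit3 matched an additional ID with 0.91, 0 and 0 expected counts in replicates 1, 2 and 3, which was not used.

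RNA came from the cytosolic fraction of macrophages that had been grown from the bone marrow of C57BL/6J mice and had been given Lipid A at 100 ng/ml for 40 minutes. Toll-like receptor 4 recognises this lipid, the anchor of bacterial lipopolysaccharide. Total RNA depleted of ribosomal RNA was sequenced in 3 libraries, which are biological replicates 1, 2 and 3 of 1 group. All 3 libraries carry the same donor record, so the labels do not tell separate animals apart, and p-values measure only how these libraries varied, which may be technical. An unstimulated group was not analysed here, so the values are levels in stimulated cells and not responses to Lipid A.

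Chaperones bind unfolded stretches of other proteins and help them to fold. In the heat shock response, unfolded protein in the cytosol releases HSF1, which binds heat shock elements in DNA and raises the transcription of the inducible chaperones. In the unfolded protein response (UPR), unfolded protein in the ER activates 3 membrane sensors. ATF6 is cut into a transcription factor, IRE1 (the product of Ern1) splices the mRNA of Xbp1 in the cytosol, and PERK (the product of Eif2ak3) phosphorylates the translation factor eIF2alpha. Macrophages secrete much protein after activation and depend on ER folding capacity for it.

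Sequence matters most for Xbp1, since the readout of IRE1 activity is the loss of a short stretch from its mRNA. The stretch of 26 bases lies in exon 4, inside the coding sequence, at chr11:5524282-5524307 on the plus strand of mm10, and is shown here in capitals within the 62 bases at chr11:5524264-5524325.
Xbp1 exon 4: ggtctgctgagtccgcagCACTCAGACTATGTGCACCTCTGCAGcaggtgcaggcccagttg
It was found as the stretch between a pair of CNGCAG sites whose removal lengthened the reading frame. With the stretch the frame has 267 codons, and without it 371 codons, which is the form that encodes the active factor XBP1s. GENCODE M21 annotates 4 transcripts of Xbp1, of which 3 hold the stretch whole and 0 join the bases on either side of it. The deposited transcript tables therefore have no entry for the spliced form, and no value below measures IRE1 splicing.

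The promoters shown next carry the best known element of the UPR, the ER stress element, which ATF6 binds together with the factor NF-Y. Promoter windows of 300 bases from RefSeq (GRCm38.p6) were matched by symbol for 30 of the 39 genes. No window was matched for Hspa8, Hspa9, Hsp90aa1, Hsp90ab1, Hsf1, Hyou1, Manf, Atf6 and Ppp1r15b, which were thus not searched for any element. The windows hold 250 bases before and 50 bases after a gene's start. The element was searched on both strands as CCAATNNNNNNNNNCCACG. It was found in 7 of the 30 genes, against 0.137% of the 27025 genes in the table. The element and the ER genes of the module were both chosen as known parts of the UPR, so this comparison is not a test. The matches are shown in capitals on the strand of the gene, so that those on the other strand read from CGTGG to ATTGG. Hspa5 is shown with shorter flanks because an annotated exon covers that place.
Hspa5, chr2:34772020-34772048, plus strand: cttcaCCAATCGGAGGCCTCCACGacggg
Calr, chr8:84847060-84847108, minus strand: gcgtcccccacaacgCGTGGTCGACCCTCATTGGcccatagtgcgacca
Canx, chr11:50325785-50325833, minus strand: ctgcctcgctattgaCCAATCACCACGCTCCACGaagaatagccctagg
Creld2, chr15:88819505-88819553, plus strand: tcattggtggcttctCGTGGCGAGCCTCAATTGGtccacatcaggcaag
Dnajc3, chr14:118937812-118937860, plus strand: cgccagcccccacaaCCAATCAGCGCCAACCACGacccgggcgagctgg
Pdia6, chr12:17266476-17266524, plus strand: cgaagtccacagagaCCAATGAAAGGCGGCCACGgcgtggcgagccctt
Hsp90b1 distal, chr10:86705623-86705671, minus strand: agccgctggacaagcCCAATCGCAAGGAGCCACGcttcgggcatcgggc
Hsp90b1 proximal, chr10:86705518-86705566, minus strand: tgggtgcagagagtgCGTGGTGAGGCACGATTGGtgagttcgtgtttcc
All 7 genes encode proteins of ER folding. The matches began between 212 and 65 bases before the start. The second form of the element, searched as ATTGGNCCACG, was found in 1 of the 30 genes, Herpud1, against 0.0444% of genes.
Herpud1, chr8:94386362-94386402, plus strand: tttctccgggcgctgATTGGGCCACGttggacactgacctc
The UPR element TGACGTGG, bound by XBP1 and ATF6, was found in 0 of the 30 genes and in 0.714% of all genes. The ATF4 type element TGATGNAA was found in Herpud1 and Trib3, against 4.51% of genes.

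The heat shock element, searched as GAANNTTCNNGAA, was found in 3 of the 30 genes, against 0.662% of all genes. These were Hspd1 and Hspe1, which encode the mitochondrial chaperonin HSP60 and its lid HSP10, and Hsph1, which encodes HSP110. The windows of the heat-inducible Hspa1a, Hspa1b, Dnajb1, Bag3 and Hspb1 held no match. Only this exact pattern was searched, so elements of another form or outside the windows would be missed. Hspd1 and Hspe1 lie head to head on chromosome 1 with annotated starts 111 bases apart, and their match is the same stretch of DNA read on opposite strands.
Hspe1, chr1:55088054-55088081, plus strand: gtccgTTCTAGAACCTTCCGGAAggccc
The capitals mark 18 bases in which a match on each strand overlaps the other. In Hsph1 the match lay after the start, and it fell into each of 2 overlapping windows with different starts. A match is a description of letters, not of binding. The heat shock element and the chaperone genes were likewise both chosen as known parts of the heat shock response, so these shares are not a test.

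**Figure D1:**
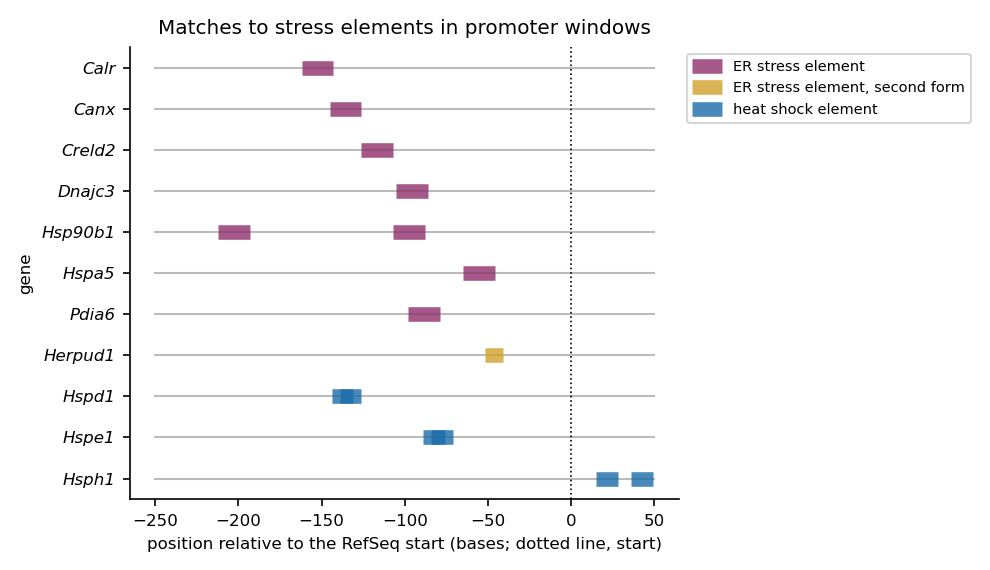
Positions of matches to the ER stress element, its second form and the heat shock element in promoter windows, in bases relative to the RefSeq start (dotted line). Grey lines are the windows, and the 7 genes with the ER stress element stand at the top. Matches of Hspd1 and Hspe1 are 1 shared stretch, and Hsph1 has the same stretch drawn against 2 starts.

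The libraries held 37861150, 37136495 and 58889061 expected counts in genes, of which the 39 genes took 361315, 368577 and 541390. Each pair of libraries differed beyond sampling noise. The chi-square of their gene counts, divided by its degrees of freedom, lay between 58.5 and 145. Nuclear protein-coding genes took 90.1%, 91.3% and 85.3% of the counts but 32.8%, 36.2% and 23.5% of the TPM. Summed over these genes, TPM was thus lowest in replicate 3, though not for every gene. TPM, an abundance per length scaled to the same sum in each library, is used below for levels. Libraries are compared on log2 CPM, which is counts over library size with TMM factors. Of 8 macrophage markers, 8 reached a mean of 1 TPM. Ly6g, Cd3e and Hbb-bs, which mark neutrophils, T cells and red cells, were at 0 in every library. Of the 6 neutrophil markers, however, 3 reached 1 TPM, with S100a9 at 22.9 TPM, S100a8 at 12.7 TPM and Ngp at 2.80 TPM. The lymphocyte marker Cd4 had 23.7 TPM. In bulk RNA, fewer cells of a type and less RNA per cell cannot be told apart.

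The module was broadly present. A mean of at least 1 TPM was reached by 37 of the 39 genes, against 43% of all nuclear protein-coding genes. The genes below it were Trib3 and Hspb1. The median level was 31.4 TPM, against 6.15 TPM over 11445 detected nuclear protein-coding genes, which are those with a mean of at least 0.1 TPM. Of the 39 genes, 14 stood in the highest 10% of these, against 10% by construction. That range began at 41.7 TPM, with Dnaja1 at 44.5 TPM just inside it and Edem1 at 40.2 TPM just outside. The 39 genes together took 1.06%, 1.09% and 1.08% of the counts of nuclear protein-coding genes in replicates 1, 2 and 3.

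**Figure D2:**
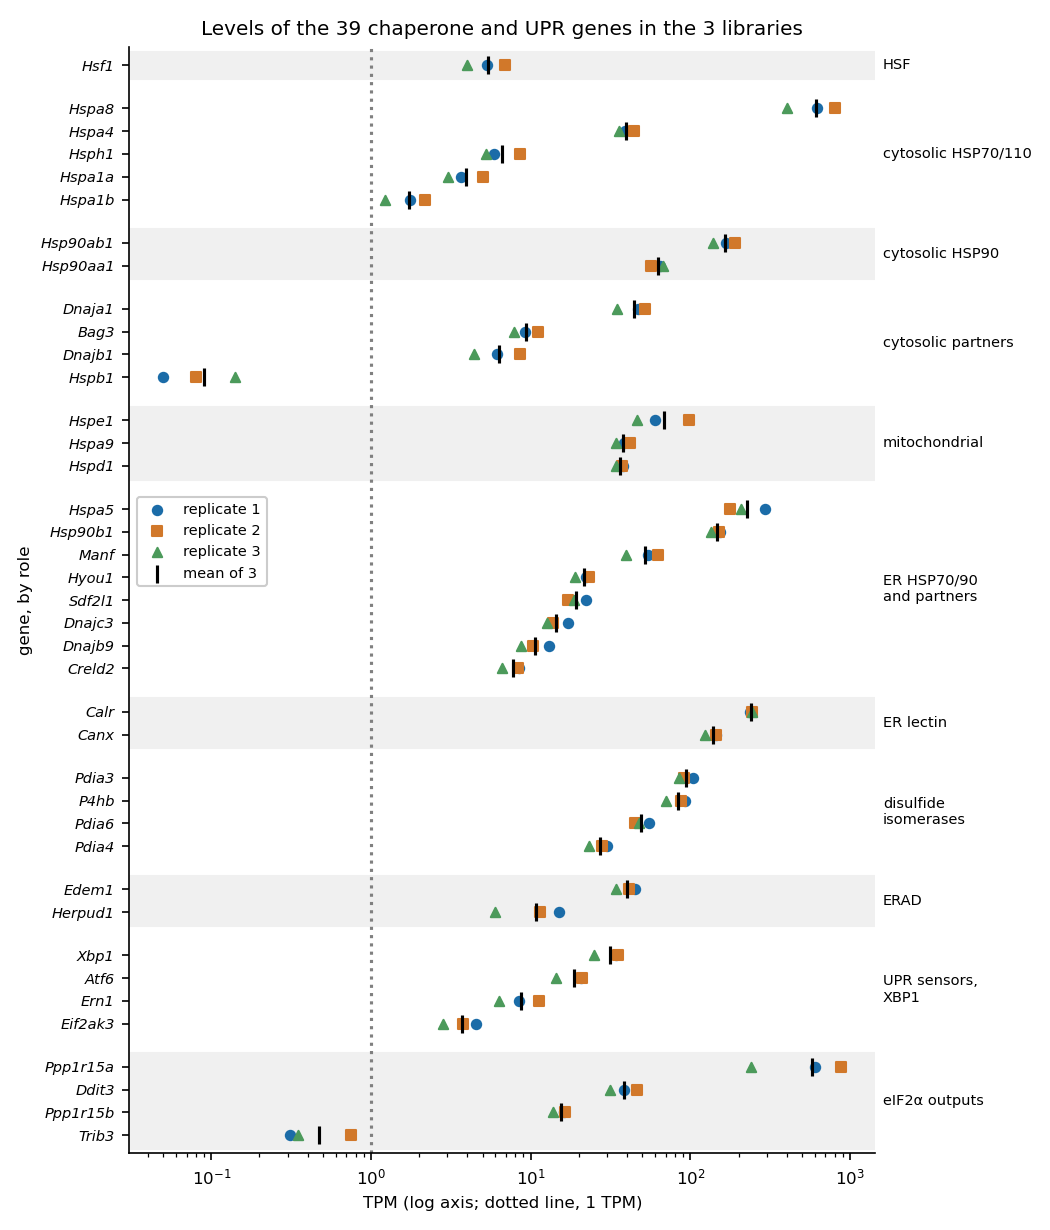
TPM (log axis) of each of the 39 genes in the 3 libraries, with the mean as a bar, ordered by role and by level within a role. Hspa8 and Ppp1r15a stand highest, at means of 608 and 575 TPM, and Trib3 and Hspb1 lie left of the dotted line at 1 TPM.

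Among the cytosolic HSP70 genes, the constitutive form far exceeded the inducible ones. Hspa8 (ENSMUSG00000015656.17, chr9:40800984-40810087, plus strand) encodes HSC70, which folds new proteins and strips clathrin from vesicles. Its level was 622, 803 and 400 TPM in replicates 1, 2 and 3, a mean of 608 ± 202 (SD, n = 3), and it was the highest of the 39 genes. On the log2 CPM scale its libraries were close, at 10.75, 10.90 and 10.63. Hspa4, which encodes a nucleotide exchange factor of the HSP110 family, had 39, 44.5 and 35.6 TPM. Hsph1, the inducible HSP110, had a mean of 6.57 ± 1.80 TPM (SD, n = 3).

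Hspa1a and Hspa1b encode the HSP70 that heat induces, and lie 12918 bases apart on chromosome 17 by their annotated starts. Hspa1a had 3.68, 5.01 and 3.05 TPM, and Hspa1b had 1.76, 2.17 and 1.23 TPM. Their coding sequences are identical at 99.4% of aligned positions, so how reads were divided between them is uncertain. The mean of log2(TPM + 1) of Hspa8 exceeded that of Hspa1a by 6.92 ± 0.25 (SD, n = 3), in 3 of 3 libraries. The exact two-sided sign-flip test on 3 libraries cannot give a p below 0.25, and this holds for every ratio between genes given below. Of the 50-base stretches in the main transcript of Hspa8, 74.8% also occur in transcripts of other genes. The other transcripts were read on both strands, so overlap with a gene on the opposite strand counts too, here and below. Among the other genes for Hspa8 are the pseudogene-like Gm15459, Gm26825 and Gm8355. For Hspa1a and Hspa1b these shares are 66.3% and 62.3%.

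Both cytosolic HSP90 genes, whose products mature kinases and steroid receptors, stood in the highest 10%. Hsp90ab1, the constitutive beta form, had 166, 190 and 139 TPM. Hsp90aa1, the inducible alpha form, had 64.1, 56.9 and 67.6 TPM. The beta form was higher in every library, by 1.37 ± 0.35 (SD, n = 3) on the log2(TPM + 1) scale. Hsp90aa1 shares 58.5% of its 50-base stretches with other genes.

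The cytosolic partners were lower, apart from Dnaja1. Dnaja1 encodes a farnesylated J-domain partner of HSC70 and had 47.1, 51.7 and 34.7 TPM. It shares 30.6% of its 50-base stretches with other genes. Dnajb1, the inducible J-domain partner HSP40, had a mean of 6.36 ± 2.06 TPM (SD, n = 3). Dnaja1 exceeded Dnajb1 by 2.65 ± 0.15 (SD, n = 3) in log2(TPM + 1). Bag3, a nucleotide exchange factor that guides selective autophagy, had 9.24, 11.1 and 7.81 TPM. Hspb1 encodes the small heat shock protein HSP25 and had 0.05, 0.08 and 0.14 TPM, from 2, 3 and 11 expected counts, and shares 60.4% of such stretches. Hsf1, the factor itself, had 5.30, 6.88 and 4.0 TPM.

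The 6 genes of the module that heat induces most strongly, Hspa1a, Hspa1b, Hsph1, Dnajb1, Bag3 and Hspb1, had a median of 5.14 TPM and a highest value of 9.39 TPM. Of these 6 genes, 0 stood in the highest 10%, which over so few genes is near the 10% of all detected protein-coding genes. Inducible and constitutive genes did not divide cleanly. The inducible Hsp90aa1 stood in the highest 10%, as did Hspa8, Hsp90ab1 and Dnaja1, and Hspa4 did not.

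The mitochondrial chaperones import and fold proteins of the matrix. Hspe1 had 59.7, 98.0 and 46.2 TPM, Hspa9 (mortalin) had 38.2, 41.8 and 34.1 TPM and Hspd1 had 37.9, 37.1 and 34.3 TPM. Hspe1 was higher than its partner Hspd1 in every library, and the log2(TPM + 1) of Hspd1 over Hspe1 was -0.81 ± 0.50 (SD, n = 3). This order depended on length, since the CPM of Hspd1, which takes no account of length, was higher than that of Hspe1 by 1.06 on the log2 scale. Hspd1 and Hspe1 also share 112 exonic bases on opposite strands, and the sources used here do not say if counting took strand into account.

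The ER chaperones were among the most abundant of the module. Hspa5 (ENSMUSG00000026864.13, chr2:34771970-34777547, plus strand) encodes BiP, the HSP70 of the ER, which also holds the sensors inactive. It had 293, 177 and 207 TPM, a mean of 226 ± 60.2 (SD, n = 3). Hsp90b1, which encodes GRP94, the HSP90 of the ER and a chaperone of Toll-like receptors and integrins, had 154, 151 and 135 TPM. BiP stood above GRP94 in every library, by 0.59 ± 0.35 (SD, n = 3) in log2(TPM + 1).

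The partners of BiP were rarer. Hyou1, a large exchange factor for BiP, had 21.4 ± 2.22 TPM (SD, n = 3), and Hspa5 exceeded it by 3.31 ± 0.39 in log2(TPM + 1) and by 2.49 in log2 CPM. Dnajc3 and Dnajb9, J-domain partners of BiP, had 14.4 ± 2.26 and 10.7 ± 2.15 TPM. Sdf2l1, which works with a J-domain protein of the ER, had 19.3 ± 2.59 TPM. Manf, a secreted protein that binds BiP, had 52.0 ± 11.5 TPM and exceeded Creld2, which encodes an ER protein induced by ER stress, by 2.58 ± 0.18 in log2(TPM + 1) and by 1.80 in log2 CPM. Creld2 was the lowest of these, at 8.38, 8.26 and 6.61 TPM.

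The lectin chaperones calreticulin and calnexin hold glycoproteins in the ER until they are folded. Calr had 235, 244 and 243 TPM, and its mean of 241 ± 4.66 (SD, n = 3) was the highest of the ER genes in the module. The order against Hspa5 was not stable, since in TPM Hspa5 was the higher in replicate 1 and Calr in the others. In log2 CPM, Calr had 9.34, 9.20 and 9.68 and Hspa5 had 9.75, 9.14 and 9.76. On that scale Hspa5 was the higher in replicates 1 and 3, and the small SD of Calr holds for TPM only. Canx had 146, 144 and 124 TPM. Calr over Canx was 0.80 ± 0.15 (SD, n = 3) in log2(TPM + 1), and -0.02 in log2 CPM, which has no correction for length.

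The protein disulfide isomerases form and shuffle disulfide bonds. Pdia3, which works with the lectins on glycoproteins, had 104, 91.6 and 84.8 TPM. P4hb, the classical isomerase, had 92.1, 87.7 and 70.6 TPM. These neighbours in the order differed by 0.16 ± 0.10 (SD, n = 3) in log2(TPM + 1), in the same direction in 3 of 3 libraries. Pdia6, which acts on BiP clients and on IRE1, had a mean of 49.3 ± 5.42 TPM, and Pdia4 was the lowest at 30.2, 27.9 and 23.2 TPM.

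In ER-associated degradation, which returns misfolded proteins to the cytosol for the proteasome, the order was clear. Edem1, which picks misfolded glycoproteins, had 44.8, 41.4 and 34.2 TPM. Herpud1, which organises the membrane complex, had 15.1, 11.5 and 5.95 TPM.

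The sensors were rarer than BiP, GRP94 and the lectins, but not than every ER partner. Atf6 had 20.7, 20.9 and 14.3 TPM, Ern1 had a mean of 8.66 ± 2.46 TPM (SD, n = 3) and Eif2ak3 had 4.55, 3.79 and 2.83 TPM. Atf6 exceeded Ern1 by 1.03 ± 0.18 and Eif2ak3 by 2.05 ± 0.12 in log2(TPM + 1), the latter by 3.0 in log2 CPM. The mean of Atf6, 18.6 TPM, was above those of Dnajc3, Dnajb9 and Creld2. Xbp1 (ENSMUSG00000020484.18, chr11:5520659-5525893, plus strand) had 34.2, 35.0 and 24.9 TPM, and its log2 CPM of 6.55, 6.47 and 6.51 was among the steadiest of the module.

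The outputs that run through eIF2alpha spanned the widest range. Ppp1r15a (ENSMUSG00000040435.12, chr7:45522916-45526268, minus strand) encodes GADD34, the inducible subunit that directs protein phosphatase 1 to eIF2alpha and so restores translation. Its level was 603, 883 and 240 TPM, a mean of 575 ± 322 (SD, n = 3), second in the module after Hspa8. These neighbours did not differ beyond their spread, since Ppp1r15a was the higher in replicate 2 and Hspa8 in the others. Ppp1r15b encodes the constitutive counterpart CReP and had 15.4 ± 1.46 TPM. The inducible subunit exceeded it by 4.95 ± 0.84 (SD, n = 3) in log2(TPM + 1), in 3 of 3 libraries, and by 3.31 in log2 CPM, which has no length correction.

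Ddit3 encodes CHOP, a transcription factor linked to death after long ER stress, and had 38.3, 46.0 and 31.5 TPM. Trib3, a pseudokinase gene that CHOP and ATF4 induce, had 0.31, 0.75 and 0.35 TPM from 31, 70 and 69 expected counts. The leader sequences of Ppp1r15a, Ppp1r15b and Ddit3 hold 3, 3 and 2 ATG triplets before the start codon. This was not particular to them, since Dnajb9 and Eif2ak3 have 3 each and Hspa8, Hsf1 and Manf have 2 each. Upstream open reading frames are the known route by which such mRNAs escape the block of eIF2alpha phosphorylation, but RNA levels do not measure translation.

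A single gene of the module was called for its spread between libraries. A goodness-of-fit test in edgeR against the trend of dispersion asked, for 12250 genes, whether the spread was larger than that of genes at a like level. It called 1.71% of the tested genes at an adjusted p (Benjamini-Hochberg) under 0.05, and 1 of the 38 module genes tested, a share near that background. Hspb1 was too low to be tested. The call was Ppp1r15a, with log2 CPM of 10.19, 10.77 and 9.42 and an adjusted p of 0.0115. Its highest library exceeded its lowest 2.54-fold. Replicate 2 was high and replicate 3 low. In edgeR the adjusted p was 0.0262 with replicate 1 left out. It was 0.321 with replicate 2 left out and 0.805 with replicate 3 left out, so the call was lost without either of these libraries. Replicate 3 also had the lowest protein-coding share of counts, 85.3%, whose part in the result was not tested.

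Another 3 genes had an unadjusted p under 0.05 in edgeR and did not pass the adjustment. With Ppp1r15a this made 4 of the 38 module genes tested, against 753 of all 12250 tested genes. Herpud1 had log2 CPM of 5.19, 4.74 and 4.27, 1.90-fold from highest to lowest, with an adjusted p of 0.109. It passed in edgeR, with an adjusted p of 0.0172, when replicate 2 was left out. Hspe1 was high in replicate 2, at 5.57, 6.16 and 5.63, and Sdf2l1 was low there, at 4.82, 4.34 and 5.01. The steadiest gene was Manf, at 5.66, 5.66 and 5.64. The median SD of log2 CPM was 0.173 in the module and 0.162 over all tested genes. These medians are not matched for level, and low genes spread more. In groups of tested genes at a like level, the median SD was 0.389 at a mean log2 CPM of -1.26. It was 0.115 at 5.44 and 0.163 at 9.35. Most module genes lay toward these higher levels, where the median of 0.173 in the module was above both values. This difference was not tested.

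**Figure D3:**
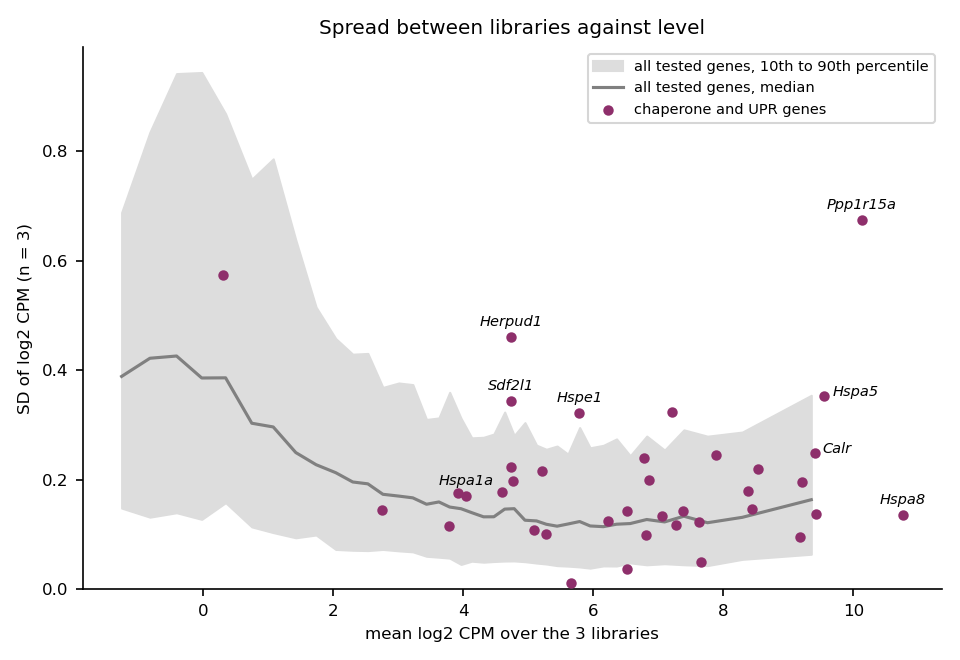
SD of log2 CPM over the 3 libraries against the mean log2 CPM, for the 38 tested module genes (points) and for all 12250 tested genes (grey band, 10th to 90th percentile in 40 bins; line, median). Ppp1r15a lies far above the right end of the band, and Hspa8 does not.

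Nearly all ER folding genes of the module had their lowest value in the same library. On the log2 CPM scale, 13 of the 14 ER folding genes (BiP, GRP94 and their partners, the lectins and the isomerases) were lowest in replicate 2, against 36.9% of all tested genes. Manf was the exception and was lowest in replicate 3, as were 32.7% of all tested genes. Of the 10 cytosolic chaperone genes tested, 0 were lowest in replicate 2 and 7 in replicate 1, against 30.4% of all tested genes for the latter. Of the same 10, 5 were highest in replicate 2 and 5 in replicate 3. Over all tested genes, 4541 of 12250 were highest in replicate 2. The median deviation of the ER folding genes from their own mean was 0.05, -0.21 and 0.15 in replicates 1, 2 and 3. That of the cytosolic chaperones was -0.11, 0.10 and 0.04. Hspa5 showed it most, with log2 CPM of 9.75, 9.14 and 9.76.

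This arrangement was noticed in the values and was not tested, and none of the 14 ER folding genes passed the spread test. Genes of a compartment can vary together for one reason, so they are not independent of each other. Under 4 other scalings the ER folding genes were lowest in replicate 2 in 13 of 14 cases. The cytosolic count stayed at 0 of 10 except with TPM rescaled to protein-coding genes, where it was 2 of 10. Among genes outside the module, 13 of 16 other ER folding genes and 12 of 15 other genes of ER-associated degradation were also lowest in replicate 2, and so were 10 of 28 other cytosolic chaperones and cochaperones. Low values in replicate 2 were not limited to ER genes. The cytosolic chaperonin had 5 of 8 subunits lowest there and 0 highest, and 5 of 8 macrophage markers were lowest there. All 7 module genes with an ER stress element in the promoter windows shown above were lowest there. Of the other 6 tested genes with that element, 3 were. The 7 module genes are among the 13 ER folding genes already named as lowest there. Dnajb9, Sdf2l1, Pdia3, Pdia4 and P4hb, in whose windows the element was not found, were lowest in replicate 2 as well. Hyou1, also lowest in replicate 2, and Manf had no window and were not searched. Herpud1, with the second form of the element, was lowest in replicate 3. A link to the element was not tested. Replicate 2 had the fewest counts and the highest protein-coding share, 91.3%, whose part was not tested.

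**Figure D4:**
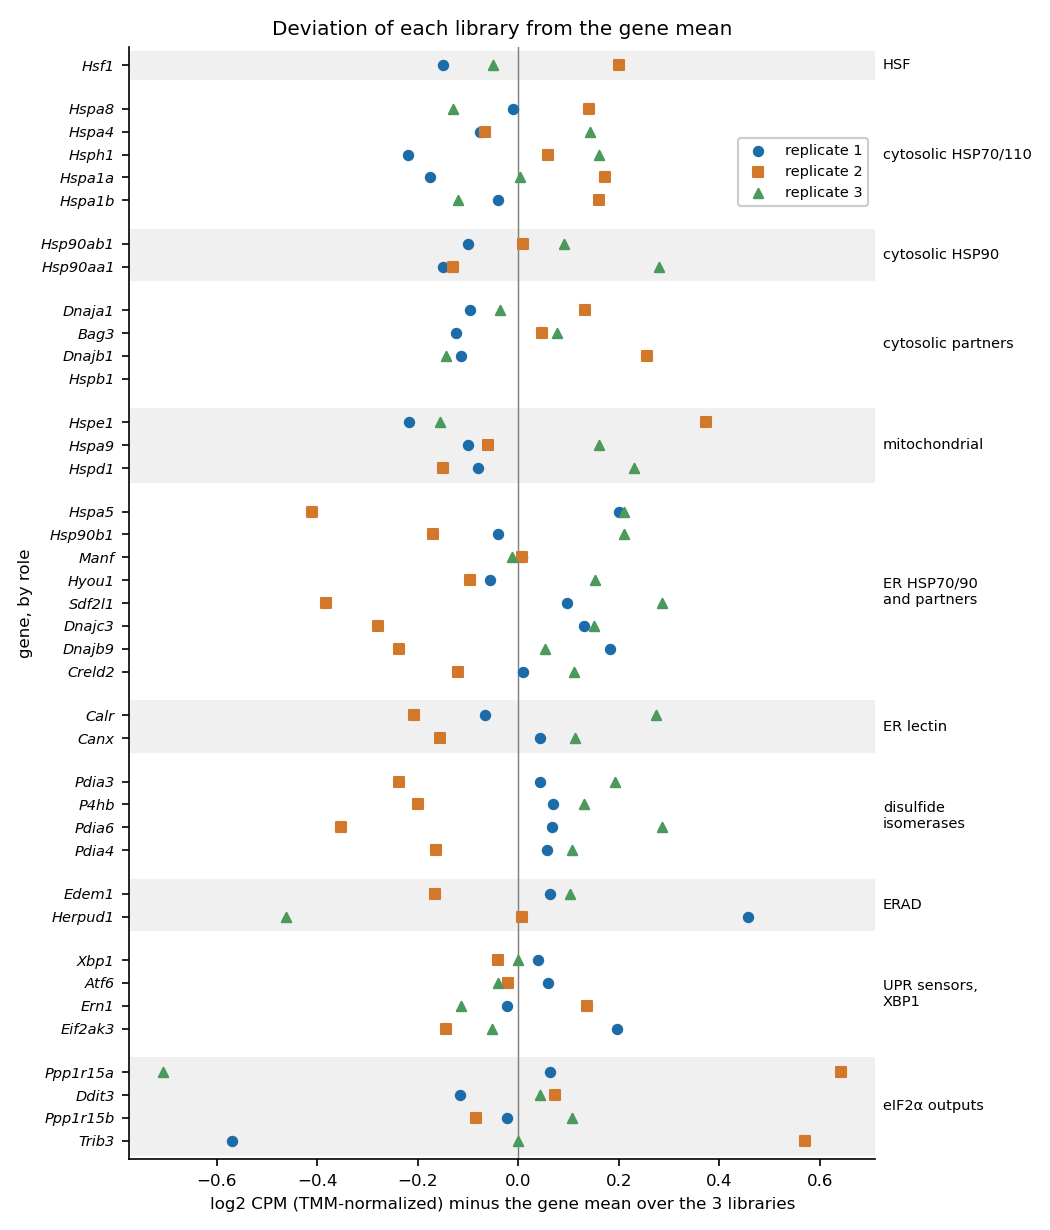
Log2 CPM of each library minus the mean of the 3 libraries, for each of the 38 tested module genes, by role (Hspb1 was not tested and has no points). Orange squares of replicate 2 stand left of the line for 13 of 14 ER folding genes, and Ppp1r15a and Trib3 have the widest ranges.

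In the first transcript table, 7 of the 39 genes had at least 10% of their TPM in retained-intron or nonsense-mediated decay transcripts, against 18.6% of detected protein-coding genes, so the count was near the background. These were Manf at 32.6% ± 3.27, Hspa4 at 29.8% ± 2.69, Hsph1 at 22.6% ± 5.77, Hsp90aa1 at 15% ± 13.0, Hspa5 at 14.8% ± 6.63, Calr at 12% ± 7.69 and Hsf1 at 11.0% ± 4.41 (SD, n = 3). For Manf and Hspa4 the share lay nearly all in a single retained-intron transcript, Manf-205 at 16.8 TPM and Hspa4-202 at 11.8 TPM. The share of Hspa5 lay mainly in a decay transcript with 56.3, 12.5 and 36.5 TPM.

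These shares are per length and lean on short transcripts. As shares of expected counts, 2 of the 39 genes reached 10%, Manf at 14.5% and Hsf1 at 11.2%, and Hspa4 fell to 3.75%. The share of all detected genes that reach 10% of expected counts was not computed, so this count has no background beside it. The library mattered as well, since Hsp90aa1 had 20.1%, 0.193% and 24.6% of its TPM in such transcripts. In the second transcript table its shares were 34.5%, 31.6% and 15.4%. The library order thus differed between the tables for Hsp90aa1, while the shares of Manf were 33.9%, 39.3% and 34.1%.

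**Figure D5:**
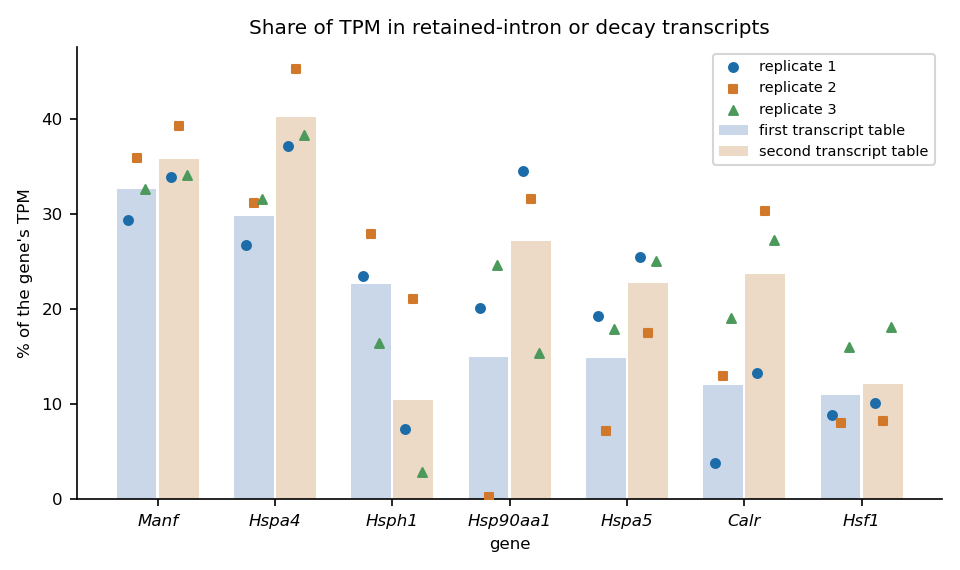
Share of each gene's TPM in retained-intron or decay transcripts for the 7 genes at or above 10% in the first transcript table (bars, mean of 3 libraries; points, libraries), in both transcript tables. Manf and Hspa4 are high in every library of both tables, and Hsp90aa1 runs from 0.193% to 24.6% in the first table.

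Xbp1-201, which is 1 of the 3 annotated transcripts that hold the stretch, had 98.4% ± 1.22 of the TPM of Xbp1 (SD, n = 3), and 97.3% in the second table. Since no annotated transcript has the stretch spliced out, this share says nothing of IRE1 splicing. Ppp1r15a was divided between Ppp1r15a-201 at 64.1% and Ppp1r15a-203 at 35.3%, and the second table put 85.2% and 13.8% there. Both are protein-coding. Hspa8-201 and Hspa8-202 held 56.8% and 35.7% of the TPM of Hspa8.

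The module sits within wider folding and stress pathways, described by 101 further genes in 6 lists. Of these, 90 had at least 1 TPM, against 43% of all nuclear protein-coding genes. In the highest 10% stood 13, against 10% by construction. The spread test called 1 of the 94 tested, against 1.71% of all tested genes. The shares in the highest 10% and called for spread were near these backgrounds. The regulators and targets of the UPR were led by Atf3, a stress-induced repressor also known in Toll-like receptor responses, with 290, 337 and 175 TPM. Cebpb, a factor of inflammatory genes, had 48.7, 33.5 and 63.6 TPM, and Atf4, the factor made when eIF2alpha is phosphorylated, had 39.7, 53.9 and 33.6 TPM. Cebpb was the call in edgeR, with log2 CPM of 6.49, 5.84 and 7.32 and an adjusted p of 1.07e-05. Its order was the reverse of that of Ppp1r15a, with replicate 3 high and replicate 2 low, and in edgeR the adjusted p was 0.0528 without replicate 2 and 0.49 without replicate 3. Chac1, another target of ATF4 and CHOP, had 0.113 TPM.

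All 8 subunits of the cytosolic chaperonin, which folds actin and tubulin, lay between 24.4 and 41.6 TPM, led by Cct2, Cct5 at 34.2 TPM and Cct4 at 34.1 TPM. Among other cytosolic partners, Ahsa1, the activator of HSP90, had 77.8 TPM, Dnajb6 58.0 TPM and Bag1 46.4 TPM. The small heat shock genes Hspb6, Cryab and Hspb8 stayed under 1 TPM, at 0.82, 0.18 and 0.03 TPM.

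Other ER folding genes reached 97.2 TPM in Selenof, 96.9 TPM in Ppib, which encodes cyclophilin B, and 94.5 TPM in Erp29. In ER-associated degradation, Vcp, the ATPase that extracts proteins from the membrane, had 63.1 TPM, Os9, a lectin, 51.6 TPM and Selenok 45.3 TPM. Derl3 was at 0.0267 TPM. The other mitochondrial chaperones and proteases were low, led by Trap1, the mitochondrial HSP90, at 12 TPM, Lonp1 at 8.76 TPM and Dnaja3 at 8.19 TPM.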

How the data were processed

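Gene and transcript tables were made by the authors on mm10 with GENCODE M21, per the deposited notes. The deposited gene table and the first transcript table give expected counts and TPM. The second deposited transcript table gives estimated counts and TPM. Which quantification tools were run, and if strand was used, is not given in the sources used here.

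Expected counts were rounded and tested with edgeR 4.0.16 (R 4.3.3): TMM scaling, filterByExpr, an intercept-only fit with trended dispersion, a goodness-of-fit test over all genes and Benjamini-Hochberg adjustment. The test was checked on counts simulated from the dispersion trend that it assumes itself, which cannot show how it holds on real counts. A gene that was not called may still differ between libraries. DESeq2 1.42.0 gave an alternative. Ratios between genes used log2(TPM + 1) per library. All 39 genes are named. Values in every library are given for the highest, next highest and lowest of each role list and for genes called for spread, and of the wider lists the 3 highest are named; other names were chosen after their values were seen. The members and lists were chosen with earlier results of these data known. Upstream ATGs, shared 50-base stretches and the Xbp1 stretch were read from GENCODE M21 transcripts, and promoters and motifs from RefSeq windows. Python 3.11.15 with pandas 2.3.3 was used. All 3 libraries form 1 group, and the depth of each is given above.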

Additional observations from a re-analysis of the deposited data

How the results depend on the processing

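In edgeR, 1 module gene was called for spread with DESeq2 size factors, no filter on low counts, protein-coding genes only and the second transcript table. The shares of all tested genes called in these settings were 1.71%, 0.982%, 1.04% and 1.53%. By DESeq2's dispersion outliers 1 was called, against 0.678% of all tested genes. Ppp1r15a was the gene each time. A single call among 38 tested genes, or 39 with no filter, is too few to set apart from these shares. Leaving out 1 replicate gave 0 to 1 calls, against 0.9%, 0.993% and 0.479% of all tested genes without replicates 1, 2 and 3. The count of 0 came without replicate 3. There, 3 of 38 module genes had an unadjusted p under 0.05 in edgeR, against 664 of all 12321 tested genes. The 1 call without replicate 2 was Herpud1. The median level was 102.3 TPM after rescaling to nuclear protein-coding genes, 13.1 TPM in the second transcript table and 98.6 TPM in that table rescaled. The last was an alternative chosen after seeing the data. The median over all detected genes was not computed for these settings. Rescaling multiplies every nuclear protein-coding gene of a library by the same factor. In the highest 10% stood 18, 15 and 19 module genes in these settings, against 14. The count of genes with at least 10% in retained-intron or decay transcripts was 2 as shares of expected counts, against 7. For shares of expected counts no background was computed. Other alternatives left the counts within 1.5 times. All 23 ratios between genes had 1 sign in 3 of 3 libraries. Of 161 ratio values under alternatives, 127 moved by less than 1 SD between libraries, 32 moved by more and 2 changed sign, both in log2 CPM, which has no length correction: Hspd1 over Hspe1 became 1.06 and Calr over Canx became -0.02. In all, 18 values shifted over 1.5-fold, 12 of them in log2 CPM and the others for Bag3 over Hspb1 and Ddit3 over Trib3, whose lower gene is under 1 TPM. The cause was not tested beyond the length correction itself. No paired analysis was possible because there is only 1 group. Counts of 2, 3 and 11 limit what can be said of Hspb1, and transcripts that share sequence limit Hspa8, Hspa1a, Hspa1b, Hspb1, Hsp90aa1, Dnaja1, Hspd1 and Hspe1, among others.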
